A study of Mus musculus and Rattus norvegicus with 96 samples.

Results

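The libraries described here come from AML12 cells exposed for 10 min to low doses of neutral buffered formalin (NBF) or to vehicle, phosphate buffered saline given for the same time. They were chosen by their labelled treatment and number 9 of the 96 samples of the series, 3 for each of vehicle, 0.006% NBF and 0.03% NBF. AML12 is an immortalized mouse hepatocyte line, labelled as male, of CD-1 strain and of liver origin, and it was made from hepatocytes that carry a human transforming growth factor alpha transgene. One line was used, so replicates share 1 genetic background, and the labels do not say whether they were separate cultures. The p-values below therefore measure only the spread between these samples, which may be technical. Another 3 libraries of the same table, from cells given 0.1% NBF for 10 min, were kept in the fit so that all 4 groups share 1 estimate of the spread. Expression was measured with TempO-Seq, in which pairs of detector oligos anneal side by side on an mRNA in a lysate, are ligated and are then counted by sequencing. The mouse panel was labelled as holding 2756 genes on 3045 probes.

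Formaldehyde, the reactive component of formalin, crosslinks proteins and nucleic acids and reacts with glutathione. Cells clear it mainly through the glutathione-dependent dehydrogenase encoded by Adh5 and through the mitochondrial aldehyde dehydrogenase encoded by Aldh2. Aldehyde stress is known to engage the heat shock response, the NRF2 antioxidant program, the unfolded protein response with its factor ATF4, and p53-dependent DNA damage signaling. Hepatocytes in culture, AML12 included, often keep structural and nuclear receptor genes of the liver while losing much of its secretory and drug-metabolizing expression. The questions here were which genes the unexposed cells express, whether any of them differed after a low dose, and how large a difference these libraries leave room for.

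No gene passed the test against vehicle at either low dose or with both doses pooled. A differentially expressed gene (DEG) was a gene with a Benjamini-Hochberg adjusted p below 0.05 and at least a 2-fold change in edgeR's quasi-likelihood test, over 1570 genes tested. The number of DEGs was 0 of 1570 (0%) at 0.006% NBF, 0 (0%) at 0.03% NBF and 0 (0%) with both doses pooled, and it was also 0 without the fold criterion. The smallest adjusted p in these comparisons was 0.9997, 0.9739 and 0.9971, respectively. An unadjusted p below 0.05 was reached by 28 genes (1.78%) at 0.006% NBF, by 62 genes (3.95%) at 0.03% NBF and by 33 genes (2.1%) with the doses pooled. DESeq2 made 0 calls as well, with 19, 47 and 27 genes at an unadjusted p below 0.05, and limma-voom made 0 calls with 34, 64 and 40. In the same fit 0.1% NBF gave 76 DEGs (4.84%) and 303 genes past the adjusted p alone (19.3%). The 3 libraries of that dose held 1364449 to 2325991 counts, against 444282 to 2221860 in the low-dose libraries. Calls at 0.1% NBF therefore do not show what the low-dose comparisons could detect. The number of DEGs at 0.1% NBF ranged from 39 to 127 when 1 of its libraries was left out.

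Depth differed between the libraries and was not balanced over the groups. Total counts ranged from 444282 to 2221860 over the 9 libraries, and 4 of them held under 1000000 counts: replicates 1 and 2 of 0.006% NBF, replicate 1 of 0.03% NBF and replicate 1 of vehicle. Replicates are numbered in accession order. Between 1865 and 2222 genes had at least 1 count in a library. Mean totals were 1095360 ± 979527 at 0.006% NBF, 1180610 ± 671696 at 0.03% NBF and 1473810 ± 818350 in vehicle (SD, n = 3 each). In exact two-sided permutation tests the totals gave p = 0.9 at 0.006% NBF and p = 0.7 at 0.03% NBF against vehicle, in a design of 3 against 3 that cannot go below 0.1. Genes at 10 counts per 1000000 scaled counts (CPM) or more numbered 1388 to 1411 in the 6 low-dose libraries and 1415 to 1429 in the vehicle libraries. These ranges did not overlap (exact permutation p = 0.0238, 0.357 after adjustment over the 15 library measures tested).

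**Figure D1:**
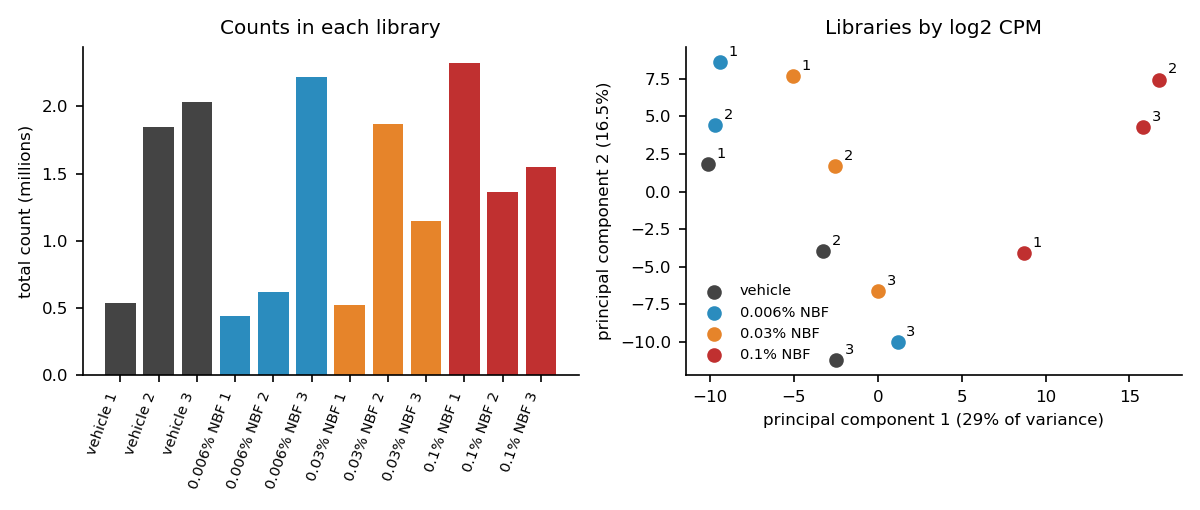
Total count of each of the 12 AML12 libraries (bars) and their places on the first 2 principal components of log2 CPM over 1570 genes (points, with the replicate number beside each). The 0.1% NBF libraries lie to the right of all others on component 1, whereas vehicle and both low doses are interleaved.

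Whole profiles of low-dose cells were as close to vehicle profiles as replicates were to each other. The distance between 2 libraries was taken as the median over genes of the absolute difference in log2 CPM. It was 0.25 to 0.32 for the 3 pairs of vehicle libraries, 0.26 to 0.36 within 0.006% NBF and 0.26 to 0.33 within 0.03% NBF. The 18 pairs of a vehicle with a low-dose library lay between 0.20 and 0.35, with a median of 0.27. The 9 pairs of a vehicle with a 0.1% NBF library had a median of 0.42. Every one of the 9 vehicle and low-dose libraries had its nearest library in a different treatment group, while each of the 3 libraries of 0.1% NBF had its nearest within its own group. Among the 9, the nearest library had the same replicate number except for replicate 2 of 0.006% NBF and replicate 3 of 0.03% NBF. Replicate numbers follow accession order and the labels name no preparation sets. A set effect on these distances, on the tests or on the intervals was not tested. The closest pair among the 9 was replicate 3 of 0.006% NBF with replicate 3 of vehicle, at 0.20. Principal component 1 held 29% of the variance. Its scores ran from -10.1 to -2.47 in vehicle and from -9.70 to 1.19 at the low doses (exact permutation p = 0.714), against 8.72 to 16.8 at 0.1% NBF. On component 2 (16.5% of variance), the 4 libraries under 1000000 counts had the highest scores among the 9, from 1.84 to 8.63; the part of depth in these distances was not tested.

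The baseline of the vehicle cells was led by a small number of abundant transcripts. S100a6, a calcium-binding protein of proliferating cells, alone stood at 128472 ± 7524 CPM in vehicle (SD, n = 3) and held 11.8% to 12.8% of the counts of a vehicle library. Calr, the endoplasmic reticulum chaperone calreticulin, followed at 43364 ± 8314 CPM, and Clu, the secreted chaperone clusterin, at 38672 ± 7967 CPM. Histone genes, whose transcripts peak in S phase, took 3 of the leading 12 places with Hist1h2bp at 40634 ± 7219 CPM, Hist2h3b at 24069 ± 4933 CPM and Hist1h3c at 12442 ± 2044 CPM, although near-identical histone copies can share reads and their split is uncertain. Other leading genes were the keratin Krt18, the actin-binding Pfn1, the ribosomal protein gene Rplp0, the nucleoside diphosphate kinase Nme1 and the chaperone Hspa5, between 12981 and 21869 CPM. These 12 genes held 36.9% of all counts of a vehicle library on average. Over the panel, 163 genes were at 1000 CPM or more in vehicle, 621 between 100 and 1000 and 630 between 10 and 100. CPM values are not corrected for probe efficiency or transcript length, so they order libraries for 1 gene rather than genes in 1 library.

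The cells expressed liver structural and regulatory genes, while most of the secretory and metabolic liver genes with any count had few. Of 50 hepatocyte and liver genes looked up, 30 had at least 1 count and 12 had enough counts to be tested. Krt18, a keratin of simple epithelia, stood at 20715, 21014 and 23878 CPM in the vehicle libraries, and its partner Krt8 at 4182, 3312 and 3386 CPM. The liver transcription factor gene Hnf4a stood at 495, 358 and 593 CPM, the bile acid receptor gene Nr1h4 at 214, 211 and 263 CPM, and Cebpa, which encodes a regulator of hepatocyte differentiation, at 100, 228 and 203 CPM. Genes for hepatocyte products and enzymes covered a wide range. Of those tested, the glutamine synthetase gene Glul had a mean of 57.1 CPM in vehicle, the haptoglobin gene Hp 18.5 CPM and the alpha-fetoprotein gene Afp 12.1 CPM. Others had means under 1 CPM, with 0.927 CPM for Apoa1, 0.713 CPM for Cyp2e1, 0.713 CPM for the urea cycle gene Ass1 and 0.185 CPM for Cyp3a11. Alb, Apob, Cps1 and Trf were among 20 liver genes listed at 0 in all 12 libraries. Of 24540 symbols listed, 2749 had a value above 0 before rounding, on a panel labelled as holding 2756 genes. Most symbols at 0 therefore have no probe. For a single gene, a missing probe cannot be told from silence, so these zeros were not read as absence of expression. Ttr, which encodes the thyroid hormone carrier transthyretin, was the most abundant secreted product of this list, at 110, 501 and 461 CPM in vehicle, 142, 285 and 540 CPM at 0.006% NBF and 88.2, 293 and 410 CPM at 0.03% NBF. Ttr varied more over the 9 libraries than any other gene at 100 CPM or more (a coefficient of variation of 55.1%, against a median of 14.4% for the 790 such genes), and its lowest value in each group fell in a library under 1000000 counts.

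Some epithelial and mesenchymal markers of other liver cells were abundant, while other members of those lists and the blood and vessel genes with a count were low. The bile duct marker Spp1 stood at 4355, 4053 and 6074 CPM in vehicle and Krt19 at 218, 264 and 213 CPM. Spp1 and Krt19 were 2 of the 3 bile duct genes of 9 with any count, with Krt7 at 2.79 CPM. Epcam and Sox9 were listed at 0, where a missing probe cannot be told from silence. Of 18 stellate cell and fibroblast genes, 13 had a count and 5 were tested. Timp1, an inhibitor of matrix proteases, was at 4063 ± 758 CPM, fibronectin (Fn1) at 2637 ± 1348 CPM and vimentin (Vim) at 851 ± 108 CPM, while the collagen genes Col1a1 and Col3a1 were at 4.22 and 1.2 CPM and the myofibroblast marker Acta2 was at 0.171 CPM. Of 10 endothelial genes 5 had a count, none above 2.22 CPM in vehicle, and Pecam1 and Kdr were at 0 in each vehicle library. Of 12 macrophage and leukocyte genes 4 had a count, with Cd68 the highest at 5.71 CPM. No member of these lists or of the hepatocyte list passed the test. The 2 bile duct genes tested had pooled log2 fold changes of -0.03 and 0.18, and the 5 stellate cell and fibroblast genes ran from -0.10 to 0.00. Unadjusted p was above 0.05 for all 7 and for Cd68. The 12 hepatocyte genes tested had a median of -0.18 (all tested genes: 0.00), and 2 of them, Afp and Hp, were lower at an unadjusted p below 0.05 (33 of all 1570 genes in either direction, 2.1%). Afp stood at 14, 16.1 and 6.15 CPM in vehicle, 9.33, 3.52 and 6.41 CPM at 0.006% NBF and 3.83, 6.16 and 4.47 CPM at 0.03% NBF, from 2 to 29 counts a library, with a pooled log2 fold change of -1.03 (-1.98 to -0.07, adjusted p = 0.9971). Hp, whose counts were multiples of 4, had 0, 52 and 52 counts in vehicle, 0, 0 and 20 counts at 0.006% NBF and 0, 4 and 24 counts at 0.03% NBF, a pooled log2 fold change of -1.70 (-3.30 to -0.09). Both genes overlapped between vehicle and low dose. Clu, Fn1 and Spp1 were each higher in replicate 3 of 0.006% NBF and replicate 3 of vehicle than in replicates 1 and 2 of those groups.

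**Figure D2:**
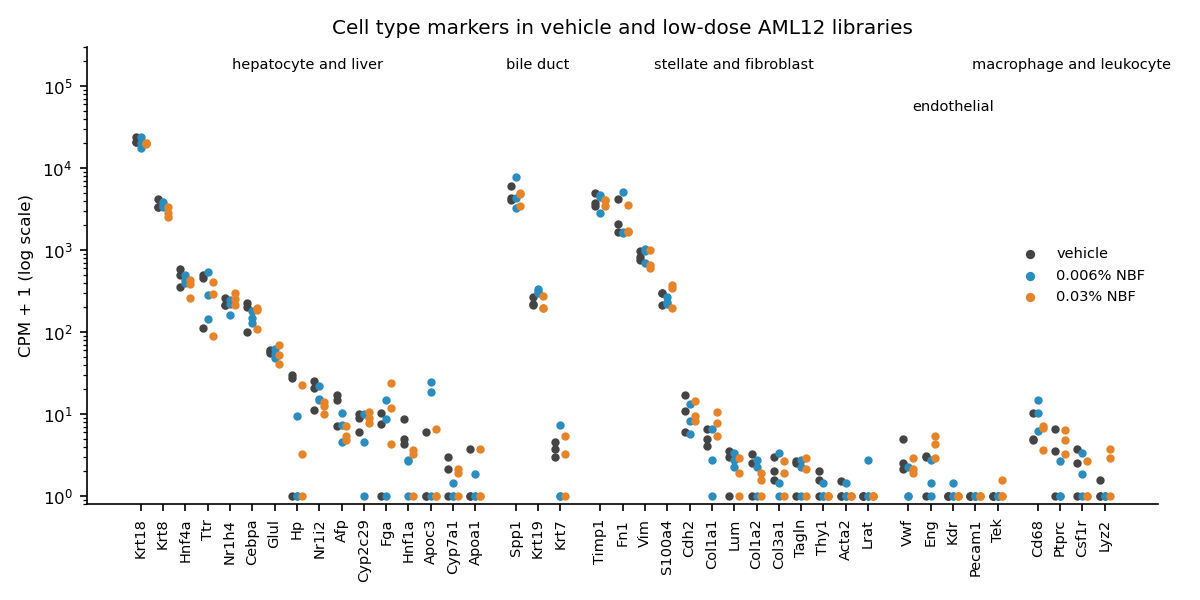
CPM plus 1 on a log scale for the cell type markers with at least 1 count (up to 16 per list), with 1 point for each vehicle, 0.006% NBF and 0.03% NBF library. Krt18, Krt8 and Hnf4a are high in all 9 libraries, endothelial markers lie near 1, and the 3 groups overlap for nearly every marker.

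Genes of the cell cycle and of growth factor signaling were detected at baseline. Of 30 cell cycle genes 28 had a count and 26 were tested. Cdk4, the G1 cyclin-dependent kinase, was at 6980 ± 98.1 CPM in vehicle, the ribonucleotide reductase gene Rrm1 at 731 ± 89 CPM and Top2a, the mitotic topoisomerase, at 628 ± 88 CPM, while Pcna, the replication clamp, was at 0.371 CPM. With both doses pooled the 26 had a median log2 fold change of 0.10 (all tested genes: 0.00), with 0 of 26 at an unadjusted p below 0.05 in any of the 3 comparisons with vehicle. The extreme was Mcm5, a subunit of the replicative helicase, at 0.91 (95% interval -0.38 to 2.20) from a vehicle level of only 2.58 CPM. Of 22 genes of the epidermal growth factor receptor pathway 9 had a count and 7 were tested. Dusp6, a phosphatase induced by growth factors, was at 363 ± 54 CPM and Egfr at 55.4 ± 20 CPM. Erbb3 was at 2.01 CPM and Egf at 0.512 CPM, while mouse Tgfa, Areg, Hbegf and Spry2 were among those listed at 0. Symbols at 0 may have no probe, so the shares with a count do not compare expression between the lists. No member of this list passed the test.

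The intervals around the fold changes give the bounds on a low-dose effect. The 95% interval lay wholly within a 2-fold change in either direction for 1197 genes (76.2%) at 0.006% NBF, for 1181 genes (75.2%) at 0.03% NBF and for 1290 genes (82.2%) with both doses pooled. It lay within 1.5-fold for 695, 625 and 837 genes. Over all 2658 genes with a count, fitted with no filter, the shares within 2-fold were 46.4%, 45.5% and 51.4%. The bound tightened with expression. With the doses pooled, 15 of 160 genes under 10 CPM were bounded within 2-fold, 477 of 608 genes between 10 and 100 CPM, 636 of 640 genes between 100 and 1000 CPM, and 162 of 162 genes at 1000 CPM or more. The median half-width of the interval went from 1.00 on the log2 scale in the lowest class to 0.28 in the highest, a factor of 1.22. Over all genes the half-width ran from 0.21 to 3.81. For the remaining genes, most of them under 100 CPM, the interval reached a 2-fold change in at least 1 direction. A pair of one-sided tests of a 2-fold margin, with Benjamini-Hochberg adjustment, called 1256, 1250 and 1352 genes within the margin at 0.006% NBF, 0.03% NBF and both doses.

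The typical fitted change was small. The median absolute log2 fold change was 0.13 at 0.006% NBF, 0.16 at 0.03% NBF and 0.12 with both doses pooled, against 0.34 at 0.1% NBF. A single pair of vehicle libraries differed by a median of 0.25 to 0.32 (with 1 library on each side rather than group means). After scaling, fitted changes were spread evenly in direction, with 788 genes above 0 and 782 below in the pooled comparison. Scaling between libraries centers the changes near 0, so this split cannot show a change shared by all genes. The fold change reached 2 in 22 genes at 0.006% NBF, in 20 at 0.03% NBF and in 11 with both doses, and all of these genes were under 100 CPM. Values of the 2 groups did not overlap for 55 genes above vehicle (3.5%) and 37 below (2.36%) at 0.006% NBF. At 0.03% NBF the counts were 72 above (4.59%) and 81 below (5.16%). All 6 low-dose libraries lay above all 3 vehicle libraries for 11 genes (0.701%) and below them for 7 (0.446%). These shares are of the whole table and single out no gene.

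**Figure D3:**
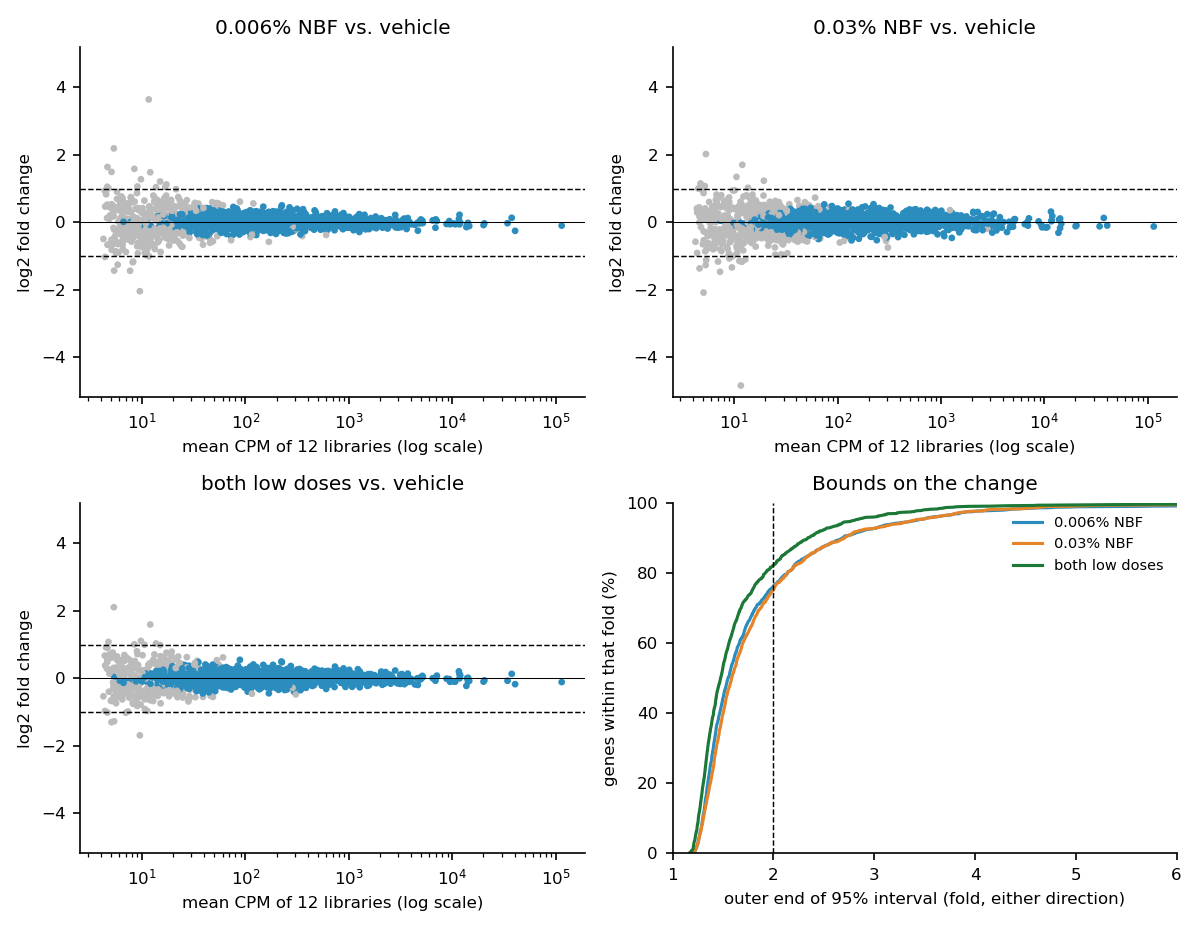
Log2 fold change against mean CPM (log axis) of 1570 genes for 0.006% NBF, 0.03% NBF and both low doses against vehicle, with genes whose 95% interval lies within 2-fold in blue and the rest in grey, and the cumulative share of genes whose interval lies within a given fold. The dashed lines mark 2-fold; the share of genes within them is 76.2%, 75.2% and 82.2%, and grey points gather at low CPM.

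Genes that handle formaldehyde itself did not pass the test. Of 18 genes of formaldehyde and one-carbon metabolism 9 had a count and 8 were tested. Adh5, which oxidizes the glutathione adduct of formaldehyde, stood at 146, 165 and 147 CPM in vehicle, 191, 171 and 184 CPM at 0.006% NBF and 192, 148 and 202 CPM at 0.03% NBF. All 3 values at 0.006% NBF were above vehicle, as for 55 of all 1570 genes tested (3.5%), while the values at 0.03% NBF overlapped it. Its pooled log2 fold change was 0.24 (95% interval -0.06 to 0.53), so a change above 1.45-fold lay outside the interval. Aldh2 stood at 200, 233 and 261 CPM in vehicle, 217, 224 and 290 CPM at 0.006% NBF and 207, 185 and 216 CPM at 0.03% NBF, overlapping throughout, with a pooled log2 fold change of -0.06 (-0.43 to 0.31). The highest members of the list were Mthfd2, a mitochondrial folate enzyme, at 1096 CPM, and catalase (Cat) at 992 CPM in vehicle. The list had a median of 0.03 (all tested genes: 0.00), and none of its genes reached an unadjusted p below 0.05. Of its 8 genes 7 were bounded within 1.5-fold (all tested genes: 53.3%). Most of the 8 were above 100 CPM in vehicle, and 85.6% of all genes between 100 and 1000 CPM lay within 1.5-fold.

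No heat shock or unfolded protein response gene passed the test. Of 19 heat shock genes 10 were tested, with a median pooled log2 fold change of 0.01, and 9 of 10 lay within 2-fold (all tested genes: 82.2%). Most of the 10 were above 100 CPM in vehicle, and 99.4% of all genes between 100 and 1000 CPM lay within 2-fold. Hsp90ab1, a constitutive chaperone, stood at 10124, 9957 and 10962 CPM in vehicle and between 8393 and 10422 CPM over the low-dose libraries, with an interval of -0.35 to 0.14. The inducible Hspa1a and Hspa1b were at 4.62 and 0.683 CPM in vehicle and were not tested. Bag3, a co-chaperone, had the smallest p of the list, with 623, 687 and 724 CPM in vehicle, 536, 567 and 595 CPM at 0.006% NBF and 550, 640 and 567 CPM at 0.03% NBF; its pooled log2 fold change was -0.24 (-0.47 to -0.01, adjusted p = 0.9971). Of 29 genes of the unfolded protein response and its ATF4 arm 19 were tested, with a median of 0.02, and 14 lay within 2-fold. Hspa5, the main chaperone of the endoplasmic reticulum, had a log2 fold change of 0.00 (-0.33 to 0.33). Atf4, which encodes the transcription factor of the integrated stress response, stood at 924, 903 and 866 CPM in vehicle, 1026, 1033 and 942 CPM at 0.006% NBF and 1078, 1214 and 1111 CPM at 0.03% NBF. All 6 low-dose values of Atf4 were above the 3 vehicle values, as for 11 of all 1570 genes tested (0.701%). The log2 fold change of Atf4 at 0.03% NBF was 0.34 (SE 0.12) and did not pass the adjustment (adjusted p = 0.9739 in edgeR). Its targets Ddit3, Trib3 and Chac1 had pooled log2 fold changes of -0.01, 0.04 and -0.26, and Slc7a11, the cystine transporter gene that NRF2 also controls, had 0.62 (-0.04 to 1.27) from a vehicle level of 11.1 CPM.

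No NRF2 target passed the test. The target Gclc lay above vehicle in each low-dose library, as 11 of all 1570 genes tested did (0.701%). Of 38 antioxidant genes 26 were tested, with a median pooled log2 fold change of 0.02, and 22 lay within 2-fold (all tested genes: 82.2%). Gclc, the catalytic subunit of the enzyme that starts glutathione synthesis (GRCm38 chr9:77754535-77794490 in the table), stood at 54.1, 63.4 and 70.2 CPM in vehicle, 103, 106 and 87.6 CPM at 0.006% NBF and 105, 92.9 and 71.5 CPM at 0.03% NBF. All 6 low-dose values of Gclc lay above vehicle, by a pooled log2 fold change of 0.54 (SE 0.17, interval 0.18 to 0.91, adjusted p = 0.9971) although the highest vehicle and the lowest low-dose value were 70.2 and 71.5 CPM. Gclm, its regulatory subunit, had a pooled log2 fold change of -0.02 (-0.43 to 0.39). The NRF2 targets Txnrd1, Srxn1 and Hmox1 had values of 0.11, -0.34 and 0.31, with intervals that included 0. Prdx1, a peroxidase and the most abundant of the list, was at 11231 CPM in vehicle and had a value of 0.12 (-0.13 to 0.38). Gsta1, a glutathione transferase, had -0.53 (-1.04 to -0.01), the only member besides Gclc with an unadjusted p below 0.05 in the pooled comparison.

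DNA damage, inflammatory and apoptosis genes gave no member past the adjusted threshold. Of 35 genes of DNA damage and p53 signaling 21 were tested, with a median of -0.05, and 20 lay within 2-fold (all tested genes: 82.2%). Most of the 21 were above 100 CPM in vehicle, and 99.4% of all genes between 100 and 1000 CPM lay within 2-fold. Cdkn1a, the p53 target that halts the cycle, was at 181 ± 16 CPM in vehicle, with a pooled log2 fold change of -0.12 (-0.46 to 0.21), and Trp53 had -0.14 (-0.40 to 0.13). Bbc3, which encodes the pro-apoptotic protein PUMA, had -0.45 (-0.85 to -0.05) and Phlda3 had -0.26 (-0.51 to -0.00479), each with an unadjusted p below 0.05 and an adjusted p of 0.9971 in edgeR. Of 26 NF-kappa B and inflammatory genes 16 were tested, with a median of -0.08. Ccl2, the monocyte chemokine, was the most abundant at 7658 ± 3097 CPM in vehicle, a spread between vehicle libraries that left an interval of -0.61 to 0.46. Of 22 apoptosis genes 11 were tested, from -0.20 to 0.46, with a median of -0.11.

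Immediate early genes had a median below 0, and none passed the test. Of 27 such genes, which respond to stimuli within minutes, 14 had a count and 9 were tested, with a median pooled log2 fold change of -0.27 (all tested genes: 0.00). Egr1, a zinc finger factor of this class, stood at 16, 20 and 20.5 CPM in vehicle, 11.7, 5.28 and 13.7 CPM at 0.006% NBF and 11.5, 5.04 and 11.6 CPM at 0.03% NBF. All 6 low-dose values of Egr1 lay below vehicle, as for 7 of all genes tested (0.446%) (log2 fold change -0.97, SE 0.35, adjusted p = 0.9971), from 3 to 32 counts a library. Egr1 was the only member with an unadjusted p below 0.05. Fosl1, the most abundant member at 1818 CPM, had -0.21 (-0.56 to 0.14), and Jun, at 184 CPM, had 0.06 (-0.33 to 0.46). Fos was at 2.39 CPM in vehicle and was not tested. Junb, Fosb, Dusp1 and Ier2 were listed at 0, where a missing probe cannot be told from silence.

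**Figure D4:**
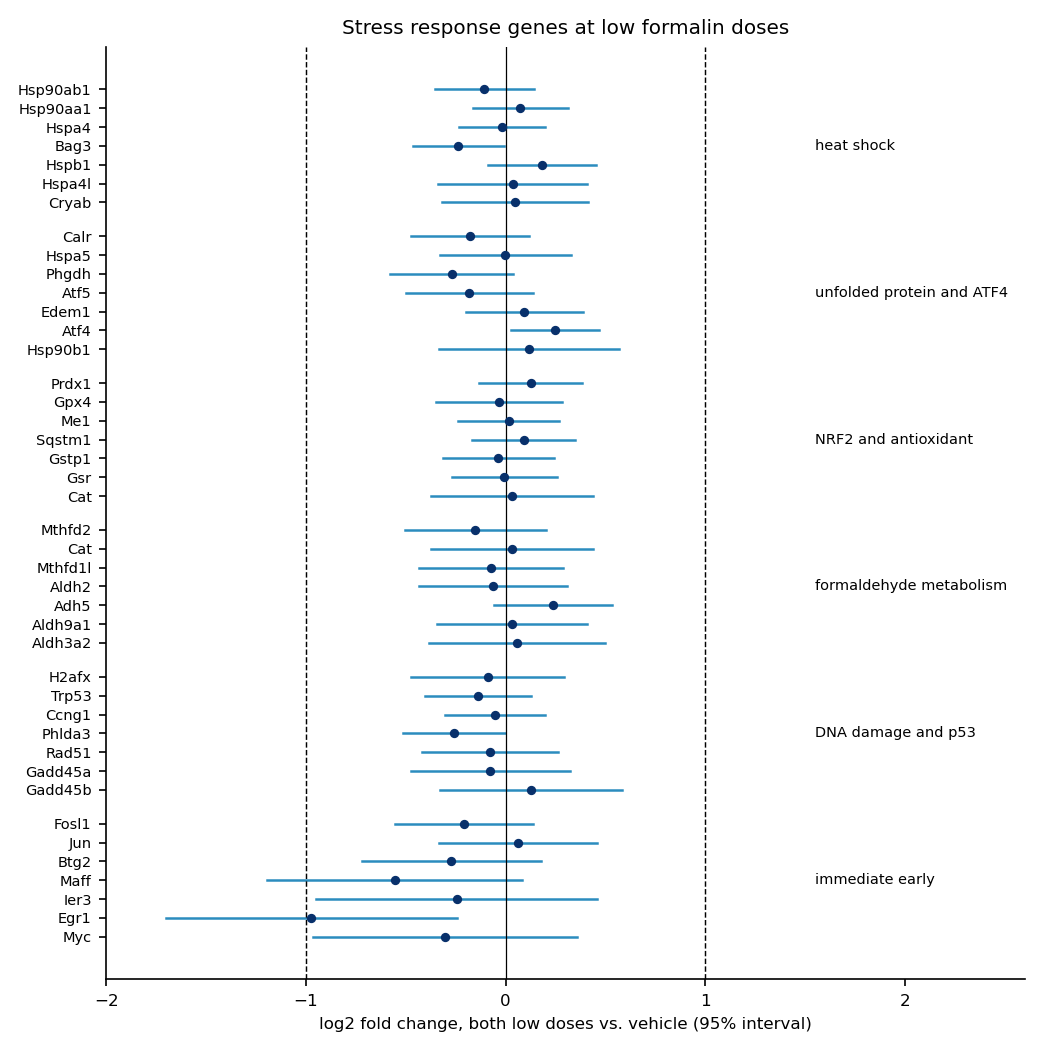
Log2 fold change (points) and 95% interval (lines) of both low doses against vehicle for up to 7 of the most abundant tested genes of each of 6 stress response lists. Nearly all intervals lie within the dashed lines at 2-fold; those of Maff and Egr1 extend past 2-fold on the lower side.

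Genes for the respiratory chain, translation and sirtuins gave no call either. All 16 electron transport genes tested lay within 2-fold and 14 within 1.5-fold with the doses pooled, with a median of 0.01. Of all tested genes, 82.2% lay within 2-fold and 53.3% within 1.5-fold. Most of the 16 were above 100 CPM in vehicle, and 99.4% of all genes between 100 and 1000 CPM lay within 2-fold. Atp5a1, a subunit of ATP synthase, was at 4685 CPM in vehicle and had an interval of -0.24 to 0.23. Of 12 translation initiation factor genes 11 lay within 2-fold (median 0.10), and of 6 ribosomal protein genes 5 did (median -0.02). The exception among the latter was Rps27a, at 9.65 CPM in vehicle. Of 16 genes of sirtuins and their partners 5 were tested, from -0.22 to 0.54. Kdm1a, a histone demethylase, was the highest of these at 0.54 (-0.45 to 1.53), with 10.0, 6.12 and 5.12 CPM in vehicle, 16.3, 3.52 and 8.12 CPM at 0.006% NBF and 17.3, 10.1 and 5.36 CPM at 0.03% NBF. H2afx, the histone variant that marks DNA breaks when phosphorylated, stood at 2970, 2784 and 2202 CPM in vehicle, 2826, 3302 and 1732 CPM at 0.006% NBF and 2195, 2724 and 2182 CPM at 0.03% NBF, with a pooled log2 fold change of -0.09 (-0.48 to 0.29).

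The genes with the smallest unadjusted p in the pooled comparison are given as a description, since none passed. Pros1, the anticoagulant protein S (GRCm38 chr16:62854307-62929343 in the table), stood at 2.00, 5.01 and 3.59 CPM in vehicle, 18.7, 10.6 and 8.55 CPM at 0.006% NBF and 5.75, 17.9 and 11.6 CPM at 0.03% NBF, a log2 fold change of 1.59 (SE 0.48). Uchl3, a deubiquitinase, and Gclc were likewise above vehicle in 6 of 6 low-dose libraries, as were 11 of all 1570 genes tested (0.701%). Ggt7, of the gamma-glutamyltransferase family, was below in 6 of 6, as were 7 of all genes tested (0.446%). These genes were picked by their p, so their separation adds no further evidence. Ggt7 stood at 8.02, 10.0 and 9.22 CPM in vehicle and between 1.79 and 6.16 CPM at the low doses. Akr1b10, an aldo-keto reductase, had the widest difference of those given here (log2 fold change 2.11, 0.69 to 3.53), from 0, 1 and 6 counts in vehicle, 0, 5 and 23 counts at 0.006% NBF and 4, 11 and 8 counts at 0.03% NBF. Over the alternatives tried its value ran from 1.60 to 3.80, the highest without replicate 3 of vehicle. The sialyltransferase gene St3gal1 and Washc5, of the endosomal WASH complex, overlapped vehicle. Each of them had an adjusted p of 0.9971.

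**Figure D5:**
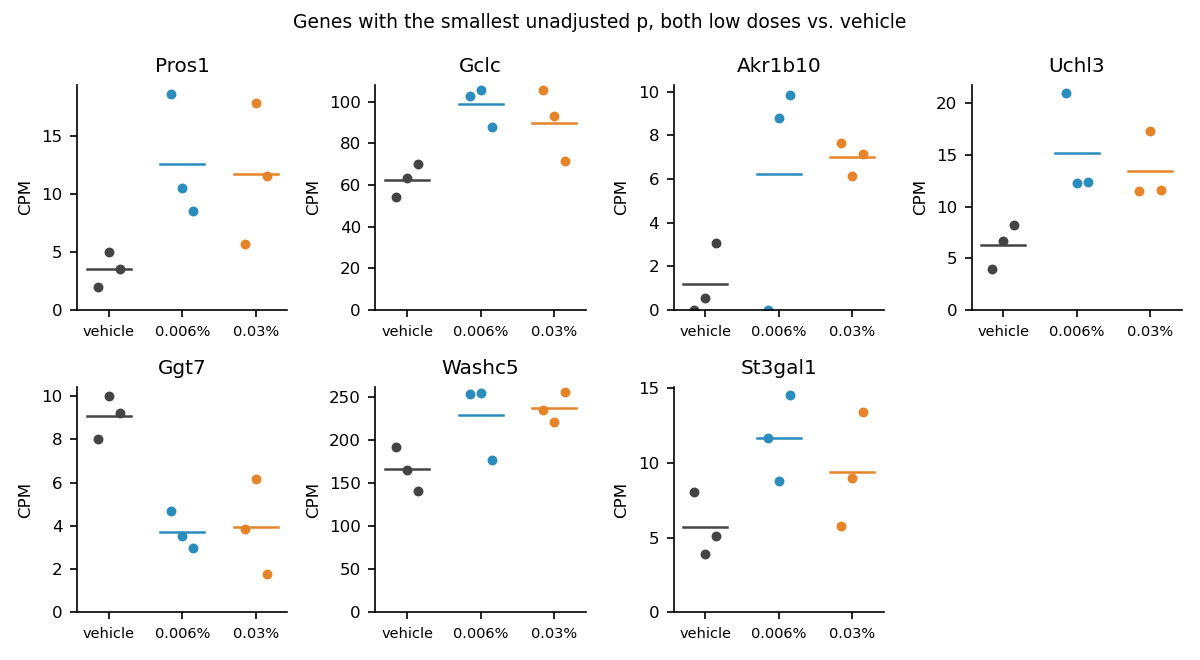
CPM of 7 of the 8 genes with the smallest unadjusted p for both low doses against vehicle, with 1 point per library and a line at the mean of each group of 3. Pros1, Gclc, Uchl3 and Ggt7 do not overlap between vehicle and low dose, and none of the 7 passed the adjusted threshold. Of all 1570 genes tested, 0.701% lay wholly above vehicle and 0.446% wholly below.

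At single doses the smallest p values fell on other genes. At 0.03% NBF the first was Zfp318, a zinc finger gene, with 12, 9.46 and 9.22 CPM in vehicle, 9.33, 12.3 and 13.7 CPM at 0.006% NBF and 23.0, 20.2 and 26.8 CPM at 0.03% NBF. All 3 values of Zfp318 at 0.03% NBF lay above the other 6 (log2 fold change against vehicle 1.23, SE 0.33, adjusted p = 0.9739 in edgeR). At that dose 72 of all 1570 genes tested lay wholly above vehicle (4.59%). Vat1, a vesicle membrane protein gene, had 271, 284 and 311 CPM in vehicle against 226, 181 and 198 CPM at 0.03% NBF, a log2 fold change of -0.53 (SE 0.16). Zdhhc6, a palmitoyltransferase gene, had 114, 112 and 85 CPM in vehicle against 155, 148 and 148 CPM at 0.03% NBF. The other genes of this group, with Pros1 and Atf4, were Armcx4 at 1.34, Oasl1 at -2.09 and Trim28 at -0.41 on the log2 scale. At 0.006% NBF Wisp1, a matricellular growth regulator, had 12, 13.9 and 18.4 CPM in vehicle, 28.0, 29.9 and 32.1 CPM at 0.006% NBF and 11.5, 20.7 and 16.1 CPM at 0.03% NBF. Its log2 fold change was 0.98 (SE 0.31) at 0.006% NBF and 0.14 (SE 0.32) at 0.03% NBF. Prss23 (1.58), Ifnar1 (1.12), St3gal1 (1.27), Akr1b10 (2.19) and Gclc (0.61) were also in this group. Both doses share the same 3 vehicle libraries, so their values are not independent.

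The first gene at 0.006% NBF, Myl2, rests on counts that moved in steps. Myl2, a muscle myosin light chain, had 0, 0 and 11 counts in vehicle, 33, 11 and 33 counts at 0.006% NBF and 0, 0 and 0 counts at 0.03% NBF, all multiples of 11. Its adjusted p was 0.9997 against vehicle at 0.006% NBF and 0.6365 between the doses. In all, 32 genes with a count in at least 3 of the 12 libraries had counts that were multiples of a number above 1, and they held 17.9% to 22.4% of the counts of a library. S100a6 and Rplp0 moved in steps of 7, and Slc25a4 in steps of 11. With each gene's counts divided by its step, the number of DEGs was 0 in all 3 comparisons with vehicle and 1294 of 1566 genes lay within 2-fold with the doses pooled.

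No gene passed the test between the doses. The number of DEGs between 0.03% and 0.006% NBF was 0 of 1570 (0%), and 60 genes had an unadjusted p below 0.05. The interval lay within 2-fold for 1148 genes (73.1%). In the table with no filter Myl2 was called between the doses (adjusted p = 4.92e-05 in edgeR). The direct comparison had log2 fold changes of 0.89 (SE 0.34) for Zfp318 and -0.84 (SE 0.31) for Wisp1, both with an adjusted p of 0.9947. Leaving out replicate 3 of 0.006% NBF raised the genes at an unadjusted p below 0.05 from 28 to 97 at 0.006% NBF and from 33 to 88 with the doses pooled. Leaving out replicate 3 of vehicle lowered them from 62 to 30 at 0.03% NBF, and leaving out replicate 3 of 0.03% NBF raised them from 62 to 93. In each of these settings the number of DEGs remained 0.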

How the data were processed

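AML12 lysates were profiled with TempO-Seq on the mouse s1500+ panel. The authors deposited estimated counts per gene, not scaled between libraries, for 24540 gene symbols with GRCm38/mm10 positions; 13.1% of values above 0 were not whole, so counts were rounded. The submitters' processing notes name CASAVA 1.8.2, STAR 2.5.3a and Partek, with no role for this table, and the counter used for it is not given in the sources used here. A deposited table of log2 values for 1659 genes equals log2 of the count plus 1 (largest difference 0.000144) and was not tested. The other tables of the series were not used here. Of 2658 genes with a count, edgeR's filterByExpr kept 1570. Counts were scaled by the trimmed mean of M-values (TMM, factors 0.917 to 1.13), and 4 group means were fitted over 12 libraries with edgeR 4.0.16 (glmQLFit, glmQLFTest, Benjamini-Hochberg adjustment, 8 residual degrees of freedom, common coefficient of biological variation 0.174), with limma 3.58.1 and DESeq2 1.42.0 in R 4.3.3 as alternatives. The standard error was taken as the absolute log2 fold change divided by the root of F, and intervals used the t quantile at the total degrees of freedom. The procedure was tested on simulated data. CPM values use TMM-scaled library sizes, with a prior count of 2 for log2 CPM. No 2 libraries agreed within sampling noise (smallest chi-square per degree of freedom 2.98). Intervals of counts cover counting error and replicate spread only.

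Genes were named by these rules: the 8 smallest unadjusted p of each comparison with vehicle, the 12 most abundant vehicle genes, the most abundant members and the smallest p of each gene list, the defining cell type markers, and Kdm1a with H2afx; Myl2's step size, Ttr's spread, Ugt1a6b and further list members were singled out after their values were seen. A few genes that meet these rules are not reported here. The libraries and gene lists were chosen with earlier results of these data known. Alternatives covered scaling, filters, tests, the samples in the fit and leaving out each library; dividing counts by their step, a term for depth and leaving out the libraries under 1000000 counts were added after seeing the data.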

Additional observations from a re-analysis of the deposited data

Results flagged for a closer look

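In 5 of 88 genes named or summarized, 1 of the 6 low-dose libraries stood apart from the other five by Dixon's criterion, which chance meets in about 1 in 20 groups. Replicate 3 of 0.006% NBF was the library apart for 3 of them: Spp1 at 7700 CPM (next 4910), Ifnar1 at 32.9 CPM (next 17.6) and Eif3c, a translation initiation factor gene, at 2060 CPM (next 2620). Replicate 1 of 0.006% NBF, the shallowest library, was apart for Myl2 at 77 CPM (next 19.4), which is 33 counts, and for Akr1b10 at 0 CPM (next 6.16).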

How the results depend on the processing

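The number of DEGs was 0 in all 4 comparisons under every alternative run except the unfiltered table of 2658 genes. There Myl2 was called at 0.006% NBF and between the doses (1 gene each; log2 fold change 3.64 at 0.006% NBF, adjusted p = 0.0131 in edgeR, and above 0.05 in each other alternative that tested it). Ugt1a6b was called with both doses pooled (1 gene; 0, 3 and 31 counts in vehicle, and 0 in each low-dose library). Over those 2658 genes 46.4%, 45.5% and 51.4% were bounded within 2-fold at 0.006% NBF, at 0.03% NBF and with both doses, against 76.2%, 75.2% and 82.2% of the 1570. Genes bounded within 2-fold ranged from 1009 to 1200 at 0.006% NBF, from 1051 to 1200 at 0.03% NBF and from 1182 to 1285 for both doses when 1 library was left out; without the 4 libraries under 1000000 counts they numbered 949, 1087 and 1224 of 1701, with a lone library at 0.006% NBF assumed to vary like the others. Of 587 values of single genes under alternatives 582 kept their direction and their side of the threshold, but some sizes moved. At 0.006% NBF the log2 fold change of Akr1b10 ran from 1.56 to 3.87 and that of Myl2 from 2.27 to 8.45, both highest without replicate 3 of vehicle, and that of Ifnar1 from 0.47 (without replicate 3 of that dose) to 1.78 (without the shallow libraries). H2afx, near 0, changed sign at 0.006% NBF without vehicle replicate 1 (0.06), without vehicle replicate 2 (0.02) and without replicate 3 of that dose (0.21), a range over left-out libraries of -0.22 to 0.21, and with both doses pooled without replicate 3 of 0.006% NBF, a range of -0.22 to 0.0248; the cause was not tested. No paired analysis was possible because the AML12 labels carry no replicate number shared between treatments. Intervals were widest under 100 CPM; the part of depth was not tested.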
